A study of Rattus norvegicus with 16 samples.

Results

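Genes of B-cell receptor signalling and B-cell identity were examined in the whole blood of rats that had received saline. The 9 genes Cd79a, Cd79b, Ms4a1, Cd22, Cd180, Blk, Blnk, Pax5 and Ebf1 were chosen by symbol, without regard to case, and the entry with the highest total would be taken where several share a symbol. Entries for 8 of them were found among the 18031 genes listed for every library, of 26405 genes listed for at least 1 library. Cd79a was not analysed here. The Ebf1 entry carries the symbol in capitals.

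The 16 libraries form 1 labelled group of saline controls, numbered 1 to 16. All were adult male Sprague-Dawley rats, 85 to 90 days old, that had been given saline (1 ml/kg) 4 times, 2 h apart, and were sacrificed 3 h after the final injection. Blood was drawn by cardiac puncture, depleted of alpha and beta globin mRNA and sequenced as polyadenylated RNA. As no treated animals are in these data, the comparisons are among animals and among 6 run codes in the names of the deposited files. The codes are called A to F here, and the labels do not describe them. Run A holds controls 1 to 3, and runs B and C hold controls 4 to 10. Runs D, E and F hold controls 11 to 16. Per the study's methods the experiment was repeated on separate occasions, and the labels do not tie a library to an occasion. Runs may therefore coincide with separate groups of animals, and differences between runs and between occasions cannot be told apart.

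Libraries held 21466776 to 31189549 estimated counts, so 3 counts, taken as the smallest detectable amount, correspond to 0.0962 to 0.14 CPM. Counting error only is covered by this limit. Levels are given as normalized counts, that is counts divided by DESeq2 size factors. They are not corrected for transcript length, so members are not ranked against each other. Markers of other blood cells were present in every library. The summed level of 8 T-cell markers ran from 8367 to 18690, that of 7 monocyte markers from 73341 to 340233, that of 7 neutrophil markers from 35501 to 1129325 and that of 4 erythroid markers from 201949 to 864390 normalized counts. Transcripts of other tissues were highest in controls 2, 8 and 12. The summed level of 6 liver markers was 447348 in control 2 and 19690 in control 8, against a median of 43.1. In control 12 the 6 early lymphoid markers summed to 5772 (median 38.3) and the 7 adipocyte markers to 4082 (median 122). Lower sums that still stood above the rest were seen in run B, with 4412 for liver markers in control 7, 2252 in control 5 and 585 for adipocyte markers in control 10. Results were repeated without controls 2, 8 and 12, and relations between genes also without all 6 of these libraries, a choice made after seeing the data. The comparisons of runs were not repeated without all 6, and the part of these transcripts in them was not tested further.

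The B-cell receptor is a membrane immunoglobulin that signals through the Cd79a and Cd79b chains. Receptor engagement activates Src family kinases such as Blk, and the adaptor Blnk couples the activated kinases to downstream enzymes. Cd22 is an inhibitory co-receptor, Ms4a1 encodes CD20, Cd180 is a Toll-like surface receptor, and Ebf1 and Pax5 are the transcription factors that establish and maintain B-cell identity.

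Upstream sequence was available in RefSeq (build GRCr8) for 5 of the 9 genes, namely Cd79a, Cd22, Cd180, Blnk and Ebf1. Windows of 250 bases before the gene start are shown for 3 of the measured members, Blnk, Cd22 and Cd180, written 5′ to 3′ on the strand of the gene. Capitals mark a match to the octamer ATGCAAAT on either strand, the motif that Oct factors and their B-cell coactivator read in immunoglobulin promoters.
Blnk (chr1:249770534-249770783, minus strand): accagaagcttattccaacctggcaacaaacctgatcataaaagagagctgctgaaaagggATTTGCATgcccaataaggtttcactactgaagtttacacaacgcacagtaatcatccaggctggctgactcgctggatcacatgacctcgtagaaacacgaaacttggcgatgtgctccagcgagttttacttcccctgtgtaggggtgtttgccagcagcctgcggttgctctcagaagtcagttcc
Cd22 (chr1:95259731-95259980, minus strand): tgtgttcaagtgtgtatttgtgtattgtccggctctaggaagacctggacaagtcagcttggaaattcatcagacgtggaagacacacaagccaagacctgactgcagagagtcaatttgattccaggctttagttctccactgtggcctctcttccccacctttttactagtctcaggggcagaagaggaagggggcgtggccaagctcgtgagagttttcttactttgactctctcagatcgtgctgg
Cd180 (chr2:35589680-35589929, plus strand): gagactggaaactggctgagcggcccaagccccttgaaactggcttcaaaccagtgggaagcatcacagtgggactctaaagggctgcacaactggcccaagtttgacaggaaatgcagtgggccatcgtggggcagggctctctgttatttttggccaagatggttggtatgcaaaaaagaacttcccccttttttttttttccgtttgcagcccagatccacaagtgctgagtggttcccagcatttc
The window of Blnk holds 1 octamer on the reverse strand, which begins 189 bases before the gene start. The other 4 windows hold none. Of the 33469 promoter windows in the table, 1.56% have a match. A core letter pattern of Ebf1 binding, CCCNNGGG, which reads the same on both strands, was found in none of the 5 windows and in 10.8% of all windows. Only exact matches were counted, so a window without a match can hold a stretch that differs from the pattern by a letter. A match, or its absence, is a description of the letters only.

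The signalling chain Cd79b (ENSRNOG00000011917) was readily measured in every animal. It averaged 3623 ± 1353 normalized counts (SD, n = 16), with the lowest value of 1958 in control 8, a median of 3270 and the highest of 5973 in control 2. The animals therefore spanned a 3.05-fold range. In whole blood, fewer B cells and less RNA per B cell cannot be told apart.

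The surface proteins spread over a similar range. Ms4a1 (ENSRNOG00000020945) averaged 2150 ± 735 normalized counts (SD, n = 16), from 1119 in control 4 through a median of 2190 to 3714 in control 6. Cd22 (ENSRNOG00000024000) averaged 1265 ± 390 (SD, n = 16), from 574.4 in control 8 through a median of 1234 to 2323 in control 6. Most animals lay close together in Cd22, and the extremes were set by few libraries. Its coefficient of variation was 30.9% in all libraries and 18.5% without controls 6 and 8. Cd180 (ENSRNOG00000010266) averaged 540.1 ± 186 (SD, n = 16), from 202.3 in control 8 through a median of 546.4 to 927.7 in control 6.

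The kinase and the adaptor also had their lowest values in the same library. Blk (ENSRNOG00000010798) averaged 341.5 ± 123 normalized counts (SD, n = 16), from 173.7 in control 8 through a median of 328.1 to 644.9 in control 6. Blnk (ENSRNOG00000013967) averaged 442.9 ± 152 (SD, n = 16), from 212.6 in control 8 through a median of 414.3 to 755.4 in control 2.

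Of the transcription factors, Pax5 was measured well and Ebf1 was near the limit. Pax5 (ENSRNOG00000024729) averaged 234.7 ± 91.4 normalized counts (SD, n = 16), from 83.7 in control 7 through a median of 220.3 to 435.0 in control 2. Ebf1 (ENSRNOG00000028845) averaged 19.4 ± 10.5 (SD, n = 16), from 2.59 in control 8 through a median of 17.1 to 50.4 in control 6. These extremes stand for 2 and 57 estimated counts, and the count in control 8 lies under the limit of 3. Counting error alone gives Ebf1 a coefficient of variation of about 21.9%, of the 54.1% observed, and without controls 6 and 8 the observed value was 30.3%.

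**Figure D1:**
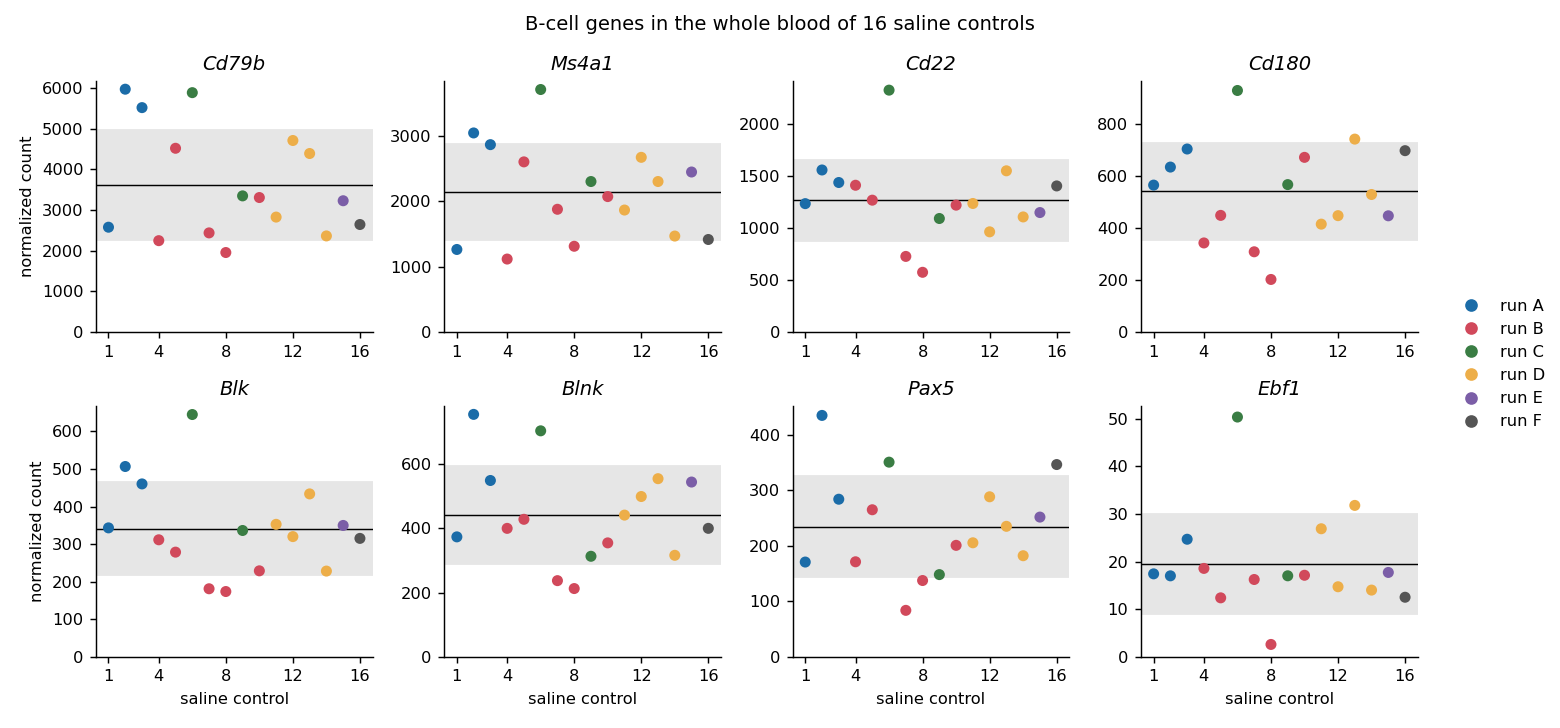
Normalized count (vertical axis, linear from 0) of each of the 8 genes in saline controls 1 to 16 (horizontal axis), 1 point per animal, coloured by run code. The line is the mean and the grey band the mean ± 1 SD over 16 animals. Control 6 is the highest point for Ms4a1, Cd22, Cd180, Blk and Ebf1, and control 2 for Cd79b, Blnk and Pax5.

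The median coefficient of variation of the 8 members was 35.2% across animals. For each of 7 of them it was between 30.9% and 38.9%, while other genes of like mean, within a factor of 2, had medians of 22.5% to 31.5%. For Ebf1 the genes of like mean had a median of 48.7%. Members thus varied somewhat more than the median gene of their level, a description over 16 libraries with no test. The other 7 coefficients exceeded those expected from counting, which were 1.61% for Cd79b to 6.35% for Pax5.

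The same few animals were high or low for most members. Control 6 had the highest value of 5 members and was among the 3 highest for all 8. Control 2 had the highest value of the other 3. Control 8 had the lowest value of 6 members and was among the 3 lowest for all 8. This position was not particular to the members, as control 8 was also lowest for 6 of 8 T-cell markers. Their sum was lowest there too (8367 normalized counts). The share of all genes with their lowest value in control 8 is not given here. In log2 level, all 8 members were above their mean in controls 3, 6 and 13, and none was in controls 7 and 8. Control 6 (run C) and control 8 (run B) also stood at opposite ends in other cells, with the lowest and the highest summed neutrophil and monocyte markers. The monocyte sum rests mostly on Lyz2, with 67258 of 73341 in control 6 and 315240 of 340233 in control 8. Lyz2 and Ccr1 were highest in control 8. Csf1r, in contrast, was highest in control 6 (3634) and Cx3cr1 lowest in control 8 (40.2). Relations between members are therefore given with and without controls 6 and 8, a repeat chosen after seeing the data.

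**Figure D2:**
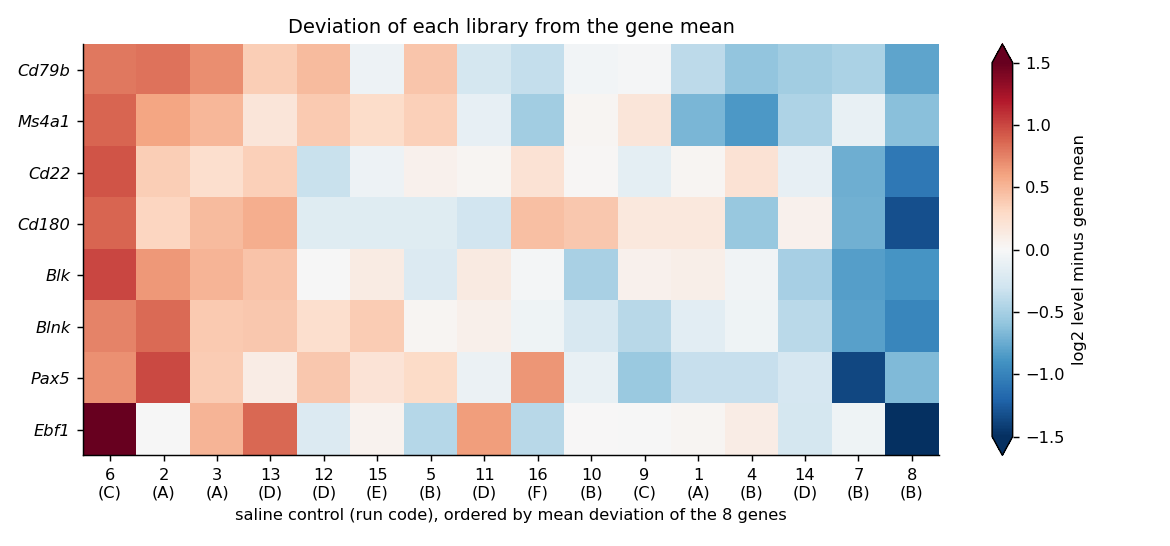
Log2(normalized count + 1) minus the mean of each gene (colour, red above and blue below the mean) for the 8 genes (rows) in the 16 saline controls (columns, with run code), ordered by the mean deviation. The scale ends at 1.5 on either side, which Ebf1 in controls 6 and 8 exceeds. Control 6 is red in every row, and controls 7 and 8 are blue in every row.

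The members rose and fell together across animals to different degrees. Of the 28 pairs of the 8 members, 26 had an adjusted p under 0.05 for Pearson's r on log2 levels (two-sided permutation test with 100000 resamples, Benjamini-Hochberg over 28 pairs), and the median r was 0.72. The share among pairs of other genes was not computed. Among 8671 genes with a mean of at least 100 normalized counts, 10.9% had an r above 0.5 with Cd79b and 16.9% with Cd22. With Spearman's rho 22 pairs passed, and after centring within run codes 21. Centring takes out the run means and leaves runs E and F, of 1 library each, no deviation. The permutations did not allow for this, so p-values after centring can be too small. Runs A to F hold at most 5 libraries each, too few for a correlation of their own. Without controls 2, 8 and 12, 19 pairs passed, and without controls 2, 5, 7, 8, 10 and 12, 17 pairs. Without the 2 libraries farthest from the median of the first gene 16 passed. Without controls 6 and 8 only 11 did, with a median r of 0.51 and a range of -0.044 to 0.89.

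The signalling chain Cd79b and Ms4a1 were the closest pair. Their r was 0.92 (n = 16, permutation p = 1e-05, the smallest these resamples can give, adjusted 9.3e-05) and rho 0.93. It was 0.95 after centring within runs and 0.89 without controls 6 and 8. The ratio of Cd79b to Ms4a1 counts accordingly stayed between 1.30 in control 7 and 2.04 in control 1. Cd79b against Cd22 was looser, with r = 0.63 (permutation p = 0.0067, adjusted 0.0094), rho 0.55 and 0.37 without controls 6 and 8. Its ratio ran from 1.60 in control 4 to 4.89 in control 12. Control 4 had 2249 normalized counts of Cd79b and 1410 of Cd22, whereas control 12 had 4712 and 962.8. Control 12 is the library with early lymphoid and adipocyte transcripts.

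The kinase, the adaptor and the inhibitory receptor were also close. Blk and Blnk had r = 0.91 (n = 16, permutation p = 1e-05, adjusted 9.3e-05), rho 0.87, 0.95 after centring and 0.86 without controls 6 and 8. Cd22 and Blk had r = 0.86 (permutation p = 2e-05, adjusted 0.00014), rho 0.74, 0.87 after centring and 0.74 without controls 6 and 8. Blnk and Pax5 had r = 0.86 (permutation p = 1e-05, adjusted 9.3e-05), rho 0.86, 0.88 after centring and 0.85 without controls 6 and 8. These 3 pairs, like Cd79b and Ms4a1, passed with and without the extreme animals.

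Another 7 pairs also had an adjusted p under 0.05 without controls 6 and 8, namely Cd79b with Blk, Blnk and Pax5, Cd22 with Cd180, Blnk and Pax5, and Blk with Pax5, with r from 0.63 to 0.75. The remaining 17 pairs did not. Cd22 and Ebf1 had r = 0.80 (permutation p = 0.00081, adjusted 0.0023) but 0.35 without controls 6 and 8 (permutation p = 0.22). Cd180 and Ebf1 had 0.73 (permutation p = 0.0026, adjusted 0.0049) but rho 0.40 (permutation p = 0.12) and 0.20 without the same controls. The pair of Ms4a1 and Cd22 had r = 0.45 (permutation p = 0.083, adjusted 0.086), rho 0.39 and 0.039 without controls 6 and 8. Pax5 and Ebf1 had the lowest r, 0.34 (permutation p = 0.19), with rho 0.17 and an r of -0.044 without controls 6 and 8. The low counts of Ebf1 limit every r it enters.

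**Figure D3:**
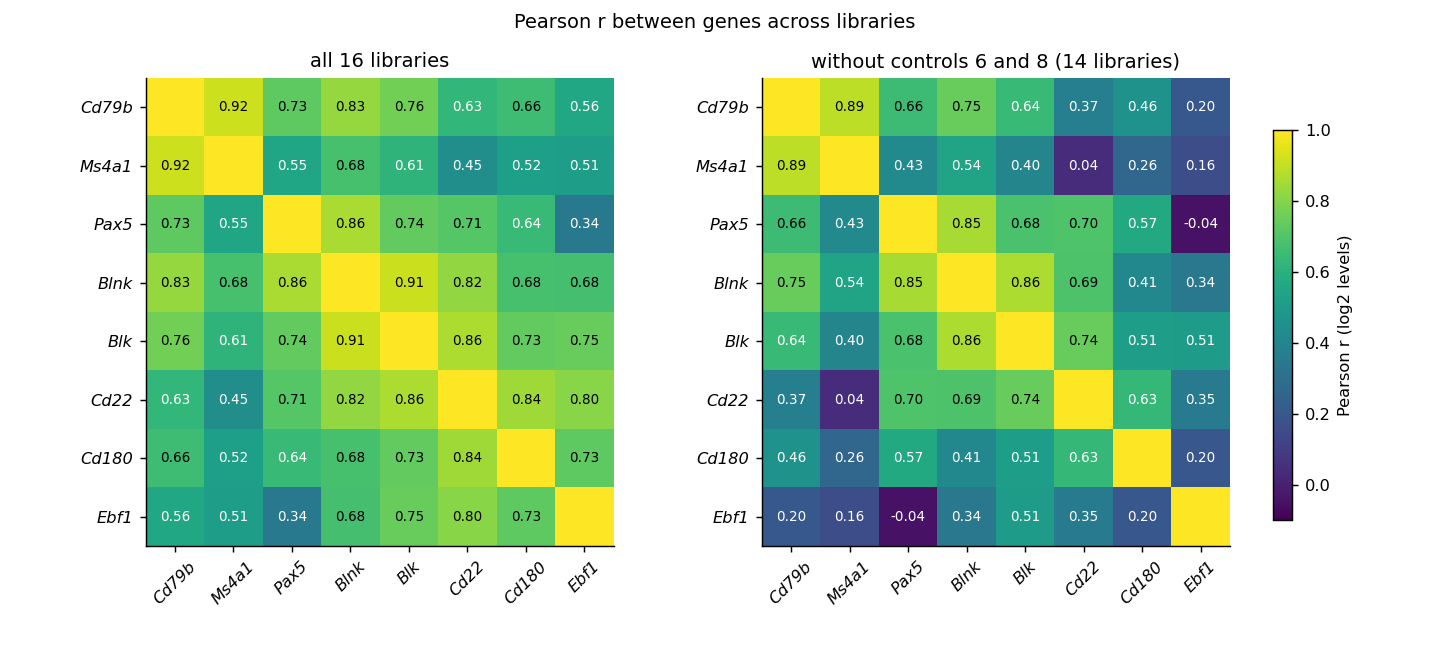
Pearson r of log2(normalized count + 1) for each pair of the 8 genes, over all 16 saline controls (left) and over the 14 without controls 6 and 8 (right), with the colour giving r. Cd79b with Ms4a1 is at 0.92 and 0.89, Pax5 with Ebf1 at 0.34 and -0.044.

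Each member was set beside the mean log2 level of T-cell, monocyte, neutrophil and erythroid markers, which made 32 relations. With neutrophil markers all 8 members had a negative r, from -0.75 to -0.37. The share of all genes with a negative r was not computed, so this is not read as particular to the members. Only Cd22 passed after adjustment over the 32 relations, with r = -0.75 (n = 16, permutation p = 0.00044, adjusted 0.014) and rho = -0.76 (permutation p = 0.0011, adjusted 0.035). The r of Cd22 was -0.79 after centring within runs and -0.54 without controls 6 and 8, the farthest from its median (permutation p = 0.040, adjusted 0.43). Leaving out control 6 alone (r = -0.69, permutation test, adjusted p = 0.083) or control 8 alone (r = -0.65, adjusted p = 0.17) also ended the call, as did leaving out controls 2, 5, 7, 8, 10 and 12 (r = -0.77, adjusted p = 0.12). Another 6 members had an unadjusted p under 0.05, and Ms4a1 had -0.37 (permutation p = 0.16). After centring within run codes 6 of the 8 passed, with Blnk at r = -0.87 (permutation p = 1e-05, adjusted 0.00032). As the permutations did not allow for the run means taken out, these p-values can be too small. Without the 2 farthest libraries none of the 8 passed (3 with an unadjusted p under 0.05). For Ebf1 the r of -0.54 became 0.025 without controls 6 and 8.

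The mean levels of the other 3 marker lists moved less with the members. For T-cell markers r lay between 0.08 and 0.33, for monocyte markers between -0.37 and 0.01 and for erythroid markers between -0.45 and -0.12. No r with these 3 lists over all 16 animals had an unadjusted p under 0.05. Single monocyte markers went both ways, which their mean hides. Over the 7 of them r with Cd22 ran from -0.71 (Ccr1) to 0.77 (Cx3cr1), and 3 were below 0. After centring within runs the r of Cd180 with erythroid markers turned from -0.17 to 0.63 (permutation p = 0.009, adjusted 0.044, both possibly too small as above). Blk and erythroid markers had rho = -0.55 (permutation p = 0.03, adjusted 0.15) and, without controls 6 and 8, r = -0.62 (permutation p = 0.017, adjusted 0.26 over the relations with the 2 farthest libraries of each member left out). With 16 animals a moderate relation can be missed, and levels scaled within a library are not independent of each other. What the scaling and the share of neutrophil RNA contribute to the negative r was not tested. Under total count scaling the r of Cd22 with neutrophil markers was -0.45 (permutation test, adjusted p = 0.27), and over 24 alternatives its adjusted p ran from 0.0032 to 0.43.

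**Figure D4:**
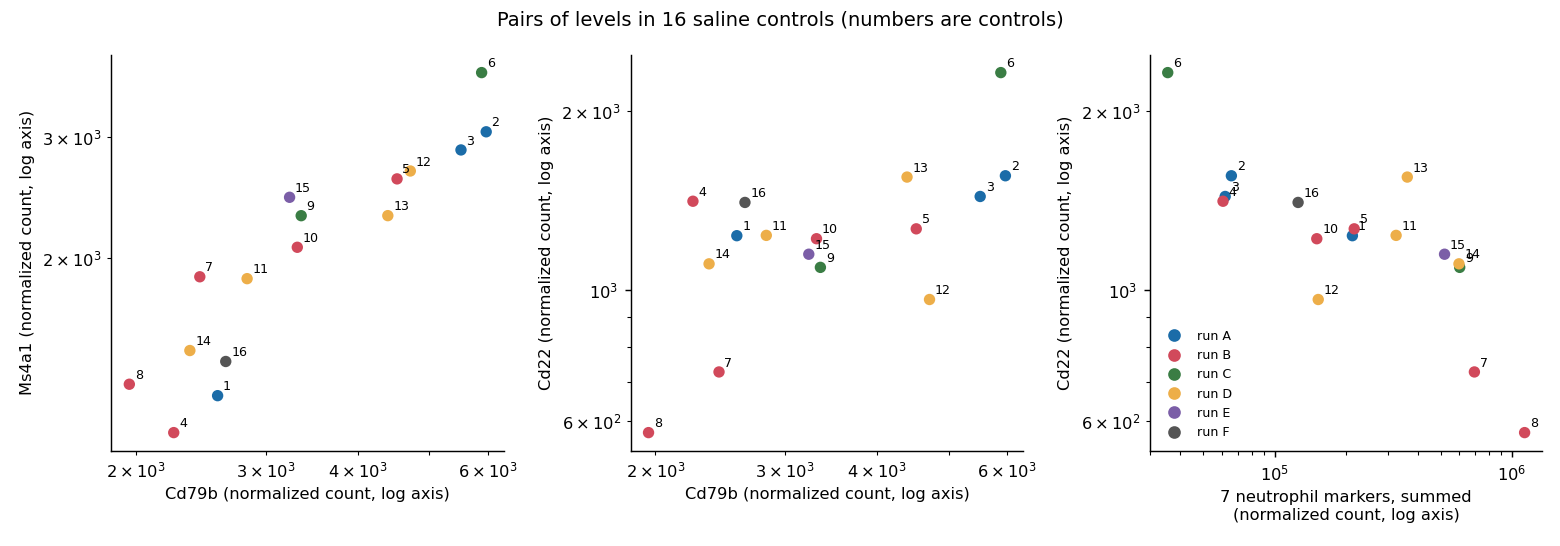
Normalized counts in 16 saline controls on log axes, 1 numbered point per animal, coloured by run code, for Ms4a1 against Cd79b (left), Cd22 against Cd79b (middle) and Cd22 against the sum of 7 neutrophil markers (right). The left points form a narrow band (r = 0.92), the middle ones scatter (r = 0.63), and in the right panel control 6 is at top left and control 8 at bottom right.

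Other B-cell genes were taken as 2 lists, 20 genes of B-cell identity and 22 of the receptor pathway. Of the identity genes, 17 of 20 had an r above 0.5 with Cd79b and 17 of 20 with Cd22, against 10.9% and 16.9% of all 8671 compared genes (those whose mean reached 100 normalized counts). Tnfrsf13c, Tnfrsf13b and Vpreb3 had lower means, so they count among the 20 but not among the compared genes. Of these 20 genes 12 were highest in control 6 and 14 lowest in control 8. The antigen presentation chaperone Cd74 had the highest mean of the list (25821 ± 9314 normalized counts, SD, n = 16) and r = 0.93 with Cd79b, and the receptor Tnfrsf13b the lowest (36.7 ± 16.6), with r = 0.76. Ly86, the partner protein of Cd180, averaged 463.1 ± 131, with r = 0.92 with Cd79b and 0.48 with Cd22. The 3 identity genes under 0.5 with Cd79b were Cd37, Cd24 and Ikzf3, named after their values were seen.

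The receptor pathway genes were more mixed than the identity genes. Of 22, 5 had an r above 0.5 with Cd79b and 9 with Cd22. Both lie above the shares of 10.9% and 16.9% among the 8671 compared genes. A negative r with Cd79b was seen for 11, and the share of all genes with a negative r was not computed. Lat2, an adaptor with the lowest mean of the list (251.5 ± 58.8 normalized counts, SD, n = 16), had r = 0.74 with Cd79b and 0.64 with Cd22. Lyn, a Src family kinase that myeloid cells use as well, had the highest mean (7853 ± 4683) and opposite values, r = -0.59 with Cd79b and -0.61 with Cd22. It ranged from 3851 in control 4 to 21337 in control 8, the library lowest in 6 of the members. Altogether 8 of the 22 were highest in control 8 and 7 in control 6. All 7 neutrophil markers were highest in control 8, and their part in this was not tested. These values are descriptions over 16 libraries, with no test.

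For each member the non-member genes with the highest r were listed, up to 3 of them, among 8671 genes (8672 for Ebf1). Cd79b was most like Fcrla (r = 0.98), Ell3 (0.98) and RT1-Ba (0.96), an MHC class II gene. Ms4a1 was most like Cd83 (0.96), RT1-Da (0.93), another class II gene, and the immunoglobulin light chain Iglc2 (0.90). Thus class II genes stood beside both genes of the closest pair. Blk was like Vav2 (0.97) and Myo1c (0.93), and Blnk was most like IGH-6 (0.98), Sh3bp5 (0.96) and Siglec10 (0.95). Cd22 was most like Inadl (0.95), Myo1e (0.95) and Faim3 (0.94). The remaining members had lower maxima. Pax5 had Nxpe3 (0.89), the class II gene RT1-DOa (0.88) and Acp5 (0.87), Cd180 had CXXC5 (0.83), the monocyte marker Cx3cr1 (0.83) and Lrrk1 (0.82), and Ebf1 had Rbl2 (0.89), Aff3 (0.88) and Lrrk1 (0.88). Reads of immunoglobulin and class II genes can be divided among near-identical copies, so their entries are uncertain.

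Between run codes no member passed the test. Runs with at least 3 libraries, A (controls 1 to 3), B (controls 4, 5, 7, 8 and 10) and D (controls 11 to 14), were compared in 1 fit of 12952 genes by the quasi-likelihood test of edgeR. An adjusted p under 0.05 was reached by 0 of 8 members in every comparison, beside 0% of all genes in both comparisons with run A and 2.3% in the comparison of runs B and D. On simulated counts the test recovered only 9.28% (A against B), 8.6% (A against D) and 9.89% (B against D) of 2-fold changes. Differences of that size between runs would therefore mostly be missed. An unadjusted p under 0.05 was seen for 3 members between A and B (13.6% of all genes), 0 between A and D (5.41%) and 1 between B and D (11.3%). With DESeq2 the calls over all genes were 568 between A and B, 8 between A and D and 765 between B and D.

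The kinase Blk was the member with the smallest p between runs. It had 343.2, 506.6 and 460.2 normalized counts in run A, against 311.5, 278.6, 181.1, 173.7 and 228.8 in run B. All 3 animals of run A were above all 5 of run B, which is true in either direction for 6.37% of the genes. The log2 fold change was -0.91 ± 0.25 (SE, edgeR p = 0.0035, adjusted 0.13). DESeq2 (adjusted p = 0.035) and edgeR without control 4 (adjusted p = 0.047) put it past the threshold, as 2 of 19 alternatives, over which the adjusted p ran from 0.035 to 0.57. In run D Blk had 352.6, 320.0, 433.6 and 228.2, and it was 0.53 ± 0.23 higher than in run B on the log2 scale (SE, edgeR p = 0.044, adjusted 0.42).

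The remaining members lay in the same direction, and their values overlapped between runs A and B. In the other comparisons with a pair of these runs the values of all 8 members overlapped, where 7.08% (A and D) and 5.96% (B and D) of all genes did not. All 8 had a log2 fold change below 0 in run B relative to run A, as did 53.2% of all genes, and above 0 in run D relative to run B, as did 56.2%. The medians over the members were -0.70 and 0.44, beside -0.03 and 0.04 over all genes, and for D relative to A the median was -0.28 beside -0.01. In that last comparison 51.4% of all genes were below 0, as were the members other than Ebf1. Blnk changed by -0.79 ± 0.29 (SE, edgeR p = 0.018, adjusted 0.25) and Pax5 by -0.80 ± 0.35 (SE, edgeR p = 0.041, adjusted 0.34) from run A to run B. As members vary together across animals, 8 genes do not count as 8 separate observations, and runs A and B share their libraries with the other comparisons.

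Other cells differed between the runs too. From A to B the median log2 fold change was 1.95 for the 7 neutrophil markers, of which 4 had an unadjusted p under 0.05, and 1.11 for the 4 erythroid markers. Summed neutrophil markers ran from 61959 to 212679 normalized counts in run A and from 60673 to 1129325 in run B. From B to D it was 0.00 for neutrophil markers and -1.33 for the 4 erythroid markers, all 4 of which passed in edgeR (adjusted p under 0.05). Their part in the run differences of the members was not tested. Of the other B-cell lists, 0 of 20 identity and 0 of 22 pathway genes were called in any comparison, with 6 and 3 at an unadjusted p under 0.05 in A against B. Of 8 plasma cell markers 1 was called, the immunoglobulin joining chain Igj, which was higher in run D than in run B by 1.09 ± 0.25 on the log2 scale (SE, edgeR adjusted p = 0.048). This call was lost in 15 of 19 alternatives, over which the adjusted p ran from 0.0045 to 0.18.

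**Figure D5:**
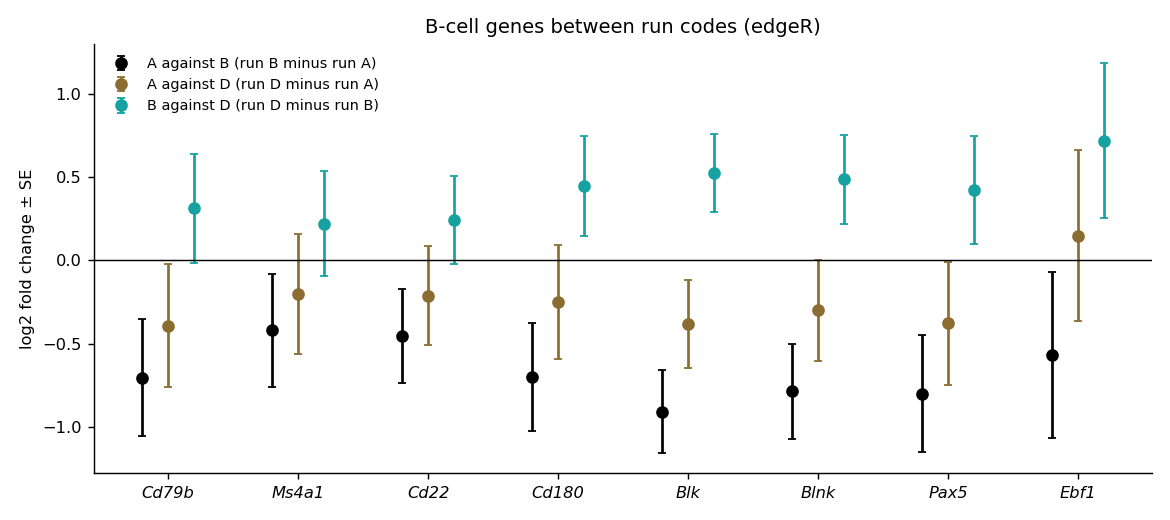
Log2 fold change ± SE from edgeR (vertical axis) of the 8 genes (horizontal axis) between runs A (n = 3), B (n = 5) and D (n = 4), 1 colour per comparison. All points for B minus A lie below 0 and all for D minus B above 0, with no adjusted p under 0.05.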

How the data were processed

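Globin-depleted whole blood RNA of 16 saline-treated rats was sequenced as paired ends of 51 bases. After clipping, the authors aligned reads with Bowtie 0.12.9 to the Ensembl release 70 transcriptome of build rn5 and deposited expected counts per gene from RSEM 1.2.0, which divides reads that fit several transcripts. The study sequenced the RNA of 1 experiment again after a fault in a library kit. Per the paper, this was its latest control group. Run A, runs B and C, and runs D to F hold as many rats as the earlier control groups, in date order. By this match these files would not come from the repeated experiment. The latest group was as large as the group before it, and the labels do not name the groups, so the match is not certain. Of the deposited values 19.3% to 27.1% per library were not whole, and all were rounded here before any test. The gene lists differed between run codes, so the 18031 genes listed for every library were used, which took 99.99% or more of every library.

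Levels were counts divided by DESeq2 1.42.0 size factors, and log2 levels used a pseudocount of 1. Runs A, B and D were compared with the quasi-likelihood test of edgeR 4.0.16 in R 4.3.3 with TMM, filterByExpr and Benjamini-Hochberg adjustment over 12952 genes, with DESeq2 and limma 3.58.1 as alternatives. Tested on simulated counts for 12952 genes with 200 changed, the code recovered 64.1%, 43.9% and 70.6% of the 4-fold changes for A against B, A against D and B against D, and 9.28%, 8.6% and 9.89% of the 2-fold changes. Relations used Pearson's r and Spearman's rho with 100000 two-sided permutations in Python 3.11.15 with numpy 2.4.6 and pandas 2.3.3. Libraries were permuted freely across runs, also after centring within run codes. As Cd79a was not analysed here, 28 pairs and 32 relations with marker lists were tested rather than all that had been planned. The labels name single rats, and p-values measure the spread among them.

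The members, the gene lists and the tests were chosen with earlier results of these data known. All members, Ly86, the genes of highest and lowest mean in both other B-cell lists, the 3 most alike genes of each member and the pairs of highest and lowest r were to be named, and 1 gene that this rule takes in is not reported here. Further pairs and 3 identity genes were named after their values were seen. Upstream sequences came from RefSeq on build GRCr8 and serve as sequence only, since the counts rest on rn5.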

Additional observations from a re-analysis of the deposited data

How the results depend on the processing

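No paired analysis was possible because all libraries belong to 1 group, whose numbers pair nothing. No member was past the threshold between runs in edgeR, and 452 of 456 repeats of the members' fold changes kept direction and side, the exceptions being Blk (above), Ms4a1 for B against D without controls 2, 8 and 12 (log2 fold change -0.014) and Ebf1 for A against D without control 13 (-0.087, with 0.35 the highest when single libraries were left out). Genes called over the whole table moved more. For A against B they numbered 568 with DESeq2, 7 with limma-voom and 1 without controls 2, 8 and 12, and 0 to 506 when single libraries were left out, the highest without control 4. For A against D they numbered 8 with DESeq2, 1 with all 16 libraries fitted and 0 to 2 with single libraries left out. For B against D they numbered 6 with total count scaling, 765 with DESeq2, 11 without controls 2, 8 and 12, and 2 to 7.0e+02 with single libraries left out, the lowest without control 11 or 14 and the highest without control 4. Total count scaling shifted the median of all genes by -0.50 (A against B) and 0.53 (B against D) on the log2 scale.

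Member pairs with an adjusted p under 0.05 numbered 11 without controls 6 and 8 and 17 without controls 2, 5, 7, 8, 10 and 12, both chosen after seeing the data, and 17 to 26 with single libraries left out, the lowest without control 8, and r of Pax5 and Ebf1 turned to -0.044 without controls 6 and 8. Relations with marker lists numbered 0 with total count scaling, 7 after centring within run codes, 0 without controls 2, 8 and 12, 0 without controls 6 and 8, 0 without controls 2, 5, 7, 8, 10 and 12, and 0 to 6 with single libraries left out, with 6 without control 4 or 13, 4 without control 10 or 15, and 0 without control 6 or 8. The counts after centring can be too high, as the permutations did not allow for the run means taken out. The r of Ebf1 with neutrophil markers turned to 0.025 without controls 6 and 8. The median coefficient of variation of the members was 43.4% with total count scaling and 32.0% to 36.5% with single libraries left out. The cause of these changes was not tested. Depth limits Ebf1 most, with 2 to 57 counts per library.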

Other observations

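Plasma cell genes were examined as a list of 8 markers beside the members. Of these, 3 of 8 had an r above 0.5 with Cd79b and 1 of 8 with Cd22, beside 10.9% and 16.9% of the 8671 compared genes. That set leaves out Sdc1, Tnfrsf17 and Derl3, whose means were below 100 normalized counts. The immunoglobulin joining chain Igj averaged 451.8 ± 218 normalized counts (SD, n = 16), from 206.2 in control 8 through a median of 393.5 to 934.7 in control 6, and had r = 0.61 with Cd79b. Irf4, a transcription factor of activated B cells and plasma cells, averaged 278.1 ± 87.2 and had r = 0.80 with Cd79b and 0.76 with Cd22. Mzb1, a chaperone of immunoglobulin assembly, averaged 106.4 ± 51.7, with r = 0.77 with Cd79b and 0.45 with Cd22. Xbp1, a secretory factor that other cells use too, had r = -0.54 with Cd79b and -0.68 with Cd22 and was highest in control 8, at 8607 against a median of 1608. The other 4 had r from -0.30 (Sdc1) to 0.44 (Tnfrsf17) with Cd79b and from -0.53 (Sdc1) to 0.33 (Tnfrsf17) with Cd22, with Prdm1 at -0.17 and 0.15 and Derl3 at 0.12 and 0.10. The r values are descriptions over 16 libraries, with no test, and the genes described in full were named after their values were seen. Between runs B and D, Mzb1 differed by 1.04 ± 0.34 on the log2 scale (SE, edgeR p = 0.0095, adjusted 0.16) and Irf4 by 0.46 ± 0.21 (SE, edgeR p = 0.048, adjusted 0.43), both higher in D.

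The 6 early lymphoid markers summed to 5772 normalized counts in control 12, where Rag1, a recombinase of developing lymphocytes, had 4189 against a median of 11.5. In that library Ebf1 was 14.7, below its mean of 19.4. Of the 6 markers 4 were highest in control 12, among them Ptcra with 58.8 against a median of 0.78. The surrogate light chain genes Vpreb1 and Igll1 had at most 9.72 and 4.82 normalized counts in any library. Of the 8 T-cell markers 3 (Cd3e, Cd3d and Cd3g) were also highest in control 12. The origin of these transcripts was not tested.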
